A study of Mus musculus with 21 samples.

Results

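The clock output transcription factors described here are 6 genes, Dbp, Tef, Hlf, Nfil3, Bhlhe40 and Bhlhe41. They were taken as the probe sets whose symbol in the platform annotation is one of these names, which gave 10 of 22626 probe sets and 6 of 12393 genes. Where a gene had several probe sets, the brightest over all arrays stands for it, and the others are given beside it. The mice were female BALB/c, 8 weeks old, and each got 1 aspiration into the trachea before the whole left lung was frozen and homogenised. Metarhizium anisopliae crude antigen (MACA), an extract of a fungus that infects insects, was given as 20 µg in 50 µl of Hank's balanced salt solution (HBSS). Bovine serum albumin (BSA), a foreign protein, was given at the same dose and volume, and the vehicle mice received 50 µl of HBSS. Lungs were taken at 3 h (HBSS n = 3, BSA n = 3, MACA n = 4) or at 12 h (HBSS n = 4, BSA n = 4, MACA n = 3), with 1 array per labelled biological replicate and 21 arrays in all. No group was left without an aspiration, so the aspiration and the handling are common to all 6 groups. The hour of day at dosing or at collection is not given in the sources used here. Time after dosing and hour of day therefore cannot be told apart.

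In nearly every mammalian cell the activators CLOCK and BMAL1 (gene Arntl) bind E-boxes and switch on the Per and Cry repressors, which then shut the activators down, so that transcription cycles over the day. The clock output factors pass this rhythm on. DBP, TEF and HLF, the PAR bZIP proteins, activate genes that carry a D-box, and NFIL3 (also E4BP4) represses through the same D-box, with a peak at the opposite time of day. BHLHE40 (DEC1) and BHLHE41 (DEC2) are repressors that bind E-boxes and so act on the targets of CLOCK and BMAL1, and Bhlhe40 is also induced by cytokines and hypoxia in immune and other cells.

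Promoter sequences are shown because these genes are known as E-box targets or, for Nfil3, as a target of the ROR and REV-ERB receptors. RefSeq windows of 300 bases on GRCm38.p6, from 250 bases before to 50 bases after a start site, were at hand for 5 of the 6 genes, with 6 windows in all because Tef had 2. In all, 3 motifs were searched on both strands: the E-box CACGTG (in 7.15% of all 32851 windows of this length), the D-box as TTATGTAA or TTACGTAA (1.06%), and TAGGTCA, the core of the ROR/REV-ERB element (2.61%). The motifs do not overlap each other in these windows. An E-box was found in both Tef windows and in that of Bhlhe41, and the ROR/REV-ERB core in that of Nfil3. The windows of Dbp (chr7:45704997-45705296, plus strand) and Hlf (chr11:90390868-90391167, minus strand) held none of these letters, which says nothing of sites outside them, and no member window held the D-box. The stretches below run 5′ to 3′ on the gene's strand, lie upstream of the start site, and have the motif in capitals.
Tef, first start site, chr15:81802526-81802571, plus strand, E-box from base -127: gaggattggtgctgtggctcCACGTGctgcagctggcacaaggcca
Tef, second start site, chr15:81811256-81811301, plus strand, E-box from base -138: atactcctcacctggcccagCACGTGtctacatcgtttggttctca
Bhlhe41, chr6:145865548-145865593, minus strand, E-box from base -153: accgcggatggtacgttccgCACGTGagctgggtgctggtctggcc
Nfil3, chr13:52981040-52981071, minus strand, ROR/REV-ERB core on the opposite strand from base -12: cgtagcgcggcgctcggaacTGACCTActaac

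Values below are intensities after quantile normalization between arrays, a linear scale. Fold changes and tests are on the log2(intensity + 16) scale, with limma and Benjamini-Hochberg adjustment over 12393 genes, and a gene is called at an adjusted p under 0.05. The noise level was an intensity of 40.9 (log2 5.83), under which 95% of the negative values fell when their sign was dropped. A fold is given as a bound where every array of a group lay under it, and it is not given where both groups did. The arrays fell apart by the ratio of a pair of probe sets for 1 hybridization control, which was 1.62 to 1.91 in 13 arrays (the high set) and 0.939 to 1.22 in 8 (the low set). Among the 8 were all vehicle arrays of 12 h and, with numbers 3 and 4, MACA arrays of 3 h and BSA arrays of 12 h. In the vehicle lungs the set thus coincides with time, and the 2 cannot be told apart. All MACA 12 h arrays were in the high set. In MACA against HBSS at 12 h the set therefore coincides with the agent, and these cannot be told apart either. The ratio of 3′ to 5′ probe sets, a sign of RNA quality, was highest on BSA 12 h replicate 4, at 1.49 for Gapdh against 0.913 to 1.10 on the other arrays, and at 1.69 for actin. All 10 lung epithelial and endothelial markers (such as Sftpc and Pecam1) were above noise on every array. In whole lung, fewer cells of a type and less RNA per cell cannot be told apart.

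Between 3 h and 12 h the lungs lost most of their Dbp, Tef and Hlf signal and a large part of their Bhlhe40 signal, whichever agent they had received. Nfil3 rose in vehicle lungs. In BSA and in MACA lungs it was also higher at 12 h, on either side of the threshold depending on the setting or the array left out. In vehicle lungs 5 of 6 members were called, 4 lower and 1 higher, where 7.88% of all genes were called (4.07% higher and 3.82% lower). The median log2 fold of the members was -1.63, and that of all genes was 0.00. In BSA lungs the same 5 members were called, against 5.3% of all genes (3.37% higher and 1.93% lower), with a median of -1.50. In MACA lungs 4 members were called, all lower, against 10.7% of all genes (5.15% lower), with a median of -1.31 (-1.21 with Dbp and Hlf at their bounds). The 12 h and 3 h arrays did not overlap for 5 of 6 members in each agent, against 24.9% of all genes in vehicle, 16.2% in BSA and 21.3% in MACA lungs. These 3 comparisons share no arrays with each other. Among all 22626 probe sets 6.93%, 3.41% and 9.12% were called in vehicle, BSA and MACA lungs, which is the background for the further probe sets given below.

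Dbp, an activator of D-box genes in liver, kidney and other tissues, had the widest span of the members. Its intensity in the 3 h vehicle arrays was 2713, 2674 and 2039. It was 2538, 2454 and 1732 in the BSA 3 h arrays and 2277, 2085, 1336 and 1028 in the MACA 3 h arrays. The 2 lowest MACA 3 h arrays are those of the low set. At 12 h Dbp read 73.9, 53.1, 43.2 and 37.0 in vehicle, 74.8, 64.7, 35.6 and 28.2 in BSA, and 27.5, 25.8 and 38.6 in MACA lungs. Every 3 h array was thus above every 12 h array by more than an order of magnitude, and all 3 MACA 12 h arrays lay under the noise level, as did 1 HBSS and 2 BSA arrays. Dbp fell by 5.22 ± 0.29 (SE) on the log2 scale in vehicle lungs (limma adjusted p = 3.35e-08), the lowest fold of all 12393 genes. The fall was 5.12 ± 0.29 in BSA lungs (log2 fold -5.12, adjusted p = 4.47e-08), and at least 28.4-fold in MACA lungs (adjusted p = 4.43e-08). Since some 12 h arrays were at noise, the fitted vehicle and BSA folds rest in part on noise. The second Dbp probe set, 1418174_at, ran from 847 to 1604 at 3 h and from 23.4 to 52.6 at 12 h, and its log2 folds were -4.87 in vehicle and -4.14 in BSA lungs, and at least 19.5-fold lower in MACA lungs.

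Tef, thyrotroph embryonic factor, kept a clear signal at 12 h. The vehicle arrays read 2619.8, 2889 and 2354 at 3 h and 664, 646, 710.1 and 748 at 12 h. The BSA arrays read 2408, 2648 and 1851 at 3 h and 578, 661, 779.9 and 728 at 12 h. The MACA arrays read 2162, 1974, 2233 and 1909 at 3 h and 591, 424 and 486 at 12 h. The 3 h and 12 h arrays did not overlap, and no Tef value was near noise. The log2 fold was -1.89 ± 0.13 in vehicle (adjusted p = 3.41e-07), -1.71 ± 0.13 in BSA (2.3e-06) and -2.02 ± 0.13 in MACA lungs (1.83e-07). Of the other Tef probe sets, 1450184_s_at read 256 to 501 at 3 h and 44.8 to 153 at 12 h, with log2 folds of -2.32 in vehicle, -1.76 in BSA and -2.11 in MACA lungs, all called. The dim probe set 1438033_at was called lower in vehicle (at least 1.42-fold) and MACA lungs (at least 1.17-fold), and not in BSA lungs (adjusted p = 0.234), in a fit over all 22626 probe sets.

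Hlf, hepatic leukemia factor, fell to near the noise level by 12 h. Its vehicle arrays read 492, 372 and 223 at 3 h and 44.0, 41.1, 56.3 and 51.9 at 12 h. The BSA arrays read 337, 329 and 149.8 at 3 h and 16.9, 46.6, 75.6 and 65.9 at 12 h. The MACA arrays read 211, 214, 139.9 and 130.3 at 3 h and 34.4, 27.6 and 37.5 at 12 h. Again no 12 h array reached the lowest 3 h array, and the 3 MACA 12 h arrays were under noise. The log2 fold was -2.50 ± 0.34 in vehicle (adjusted p = 0.000693) and -2.12 ± 0.34 in BSA lungs (0.00221), and Hlf was at least 3.26-fold lower in MACA lungs (0.00164). The BSA call was made in 9 of 10 alternative settings of the limma fit (highest adjusted p = 0.127). The other Hlf probe set, 1434736_at, was called in the same direction for all 3 agents, with log2 folds of -2.38, -2.41 and -1.74 in vehicle, BSA and MACA lungs.

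**Figure D1:**
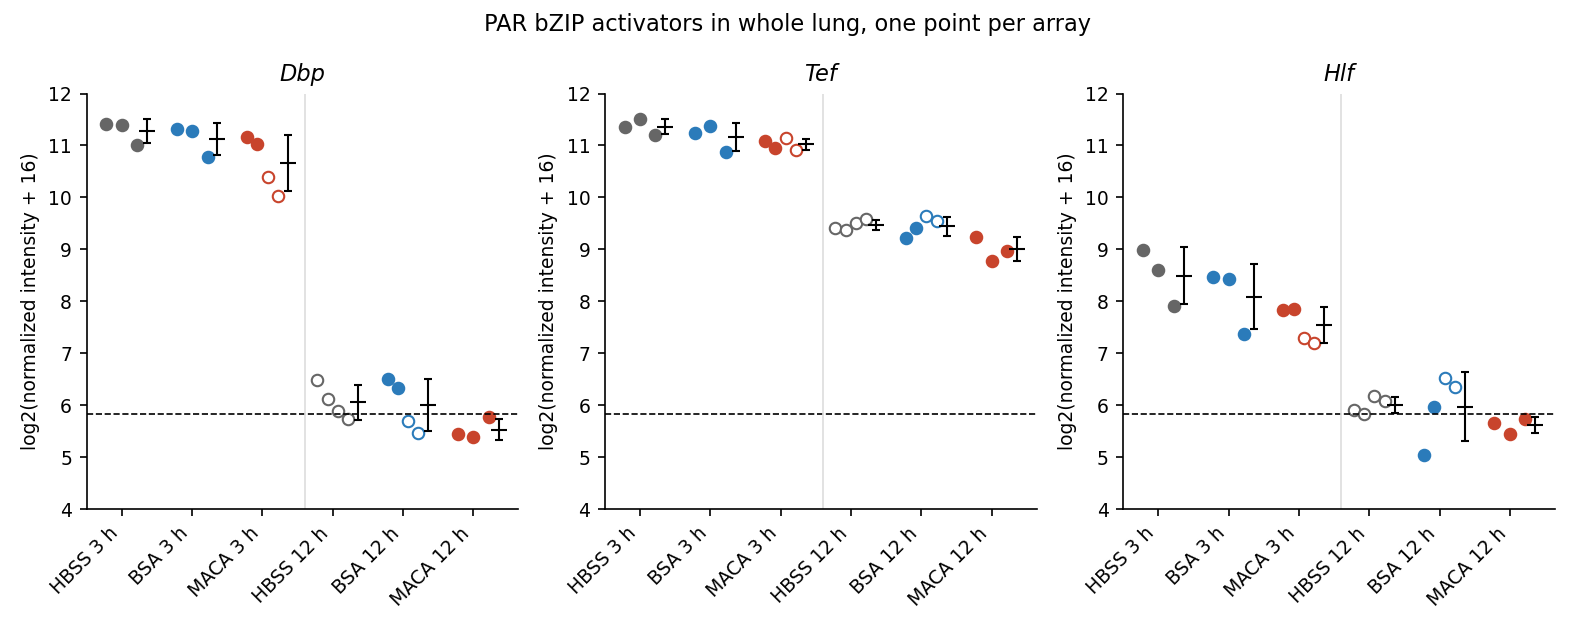
Intensity of Dbp, Tef and Hlf on every array, as log2(normalized intensity + 16), by agent and time. Filled points are arrays of the high control-ratio set and open points of the low set, black marks give the group mean and SD, and the dashed line is the noise level (log2 5.83). In all 3 genes each 3 h array lies above each 12 h array.

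Nfil3, the D-box repressor, moved the other way. Its intensity in vehicle lungs was 59.0, 46.8 and 44.6 at 3 h and 143, 146, 110.2 and 182 at 12 h. In BSA lungs it was 75.3, 74.6 and 87.8 at 3 h and 204, 178, 108 and 152 at 12 h. In MACA lungs it was 119, 159, 89.9 and 192 at 3 h and 199, 230.1 and 225 at 12 h. Within each agent the times did not overlap, but the MACA 3 h arrays reached into the range of the vehicle and BSA 12 h arrays. Nfil3 rose with time in vehicle lungs (log2 fold 1.27 ± 0.21, adjusted p = 0.00266) and in BSA lungs (0.86 ± 0.21, adjusted p = 0.0285). In MACA lungs the log2 fold was 0.63 ± 0.21 and was not called (adjusted p = 0.0691), but Nfil3 was called there with low genes left out (0.63, adjusted p = 0.0458) and without MACA 3 h replicate 4 (0.78, adjusted p = 0.0294). The BSA call was made in 3 of 7 fits that left out 1 array. The adjusted p was 0.0797 without BSA 3 h replicate 1, 0.114 without BSA 3 h replicate 2, 0.0546 without BSA 12 h replicate 1 and 0.0576 without BSA 12 h replicate 4. The call was also lost without scaling (adjusted p = 0.306) and in a fit of the BSA arrays alone (0.150). In vehicle lungs the fold of Nfil3 was the 28th highest of 12393 genes, and those of Hlf, Tef and Bhlhe40 were the 7th, 13th and 31st lowest.

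Bhlhe40, a repressor at E-boxes, was lower at 12 h with each agent. In vehicle lungs it read 1127, 968 and 705 at 3 h and 272, 356, 413 and 355 at 12 h. In BSA lungs it read 1282, 1151 and 1097 at 3 h and 570.3, 466, 427 and 432 at 12 h. In MACA lungs it read 1577, 1810.3, 1278 and 1824 at 3 h and 818, 1174 and 979.7 at 12 h. The times did not overlap within any agent, while the MACA 12 h arrays were in the range of the vehicle 3 h arrays and above it. The log2 fold was -1.37 ± 0.17 in vehicle (adjusted p = 0.000362), -1.29 ± 0.17 in BSA (0.000608) and -0.70 ± 0.17 in MACA lungs (0.0157). The MACA call was lost without MACA 12 h replicate 1 (adjusted p = 0.0775). It was also lost in a fit of the MACA arrays alone (adjusted p = 0.0731). Without scaling between arrays Bhlhe40 was called for no agent, with log2 folds of -0.55 in vehicle (adjusted p = 0.166), -1.23 in BSA (0.223) and -0.66 in MACA lungs (0.618).

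Bhlhe41, the close relative of Bhlhe40, gave almost no signal, with 5 of 21 arrays above noise and a highest intensity of 52.4. Vehicle arrays read 45.2, 42.2 and 29.1 at 3 h and 17.7, 34.5, 46.5 and 25.2 at 12 h. BSA arrays read 27.0, 25.4 and 30.4 at 3 h and 26.7, 23.7, 52.4 and 46.1 at 12 h. MACA arrays read 18.9, 21.1, 32.7 and 22.3 at 3 h and 24.4, 14.0 and 14.7 at 12 h, all under noise. Differences of Bhlhe41 between groups were not measurable at this signal, and limma called it in none of the 11 comparisons. Its unadjusted p was under 0.05 in 3 of them, MACA against HBSS at 3 h and at 12 h and MACA against BSA at 12 h. With the set as a term the first of these passed the threshold (adjusted p = 0.0388), on MACA arrays that all lay under noise, so no fold is given.

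**Figure D2:**
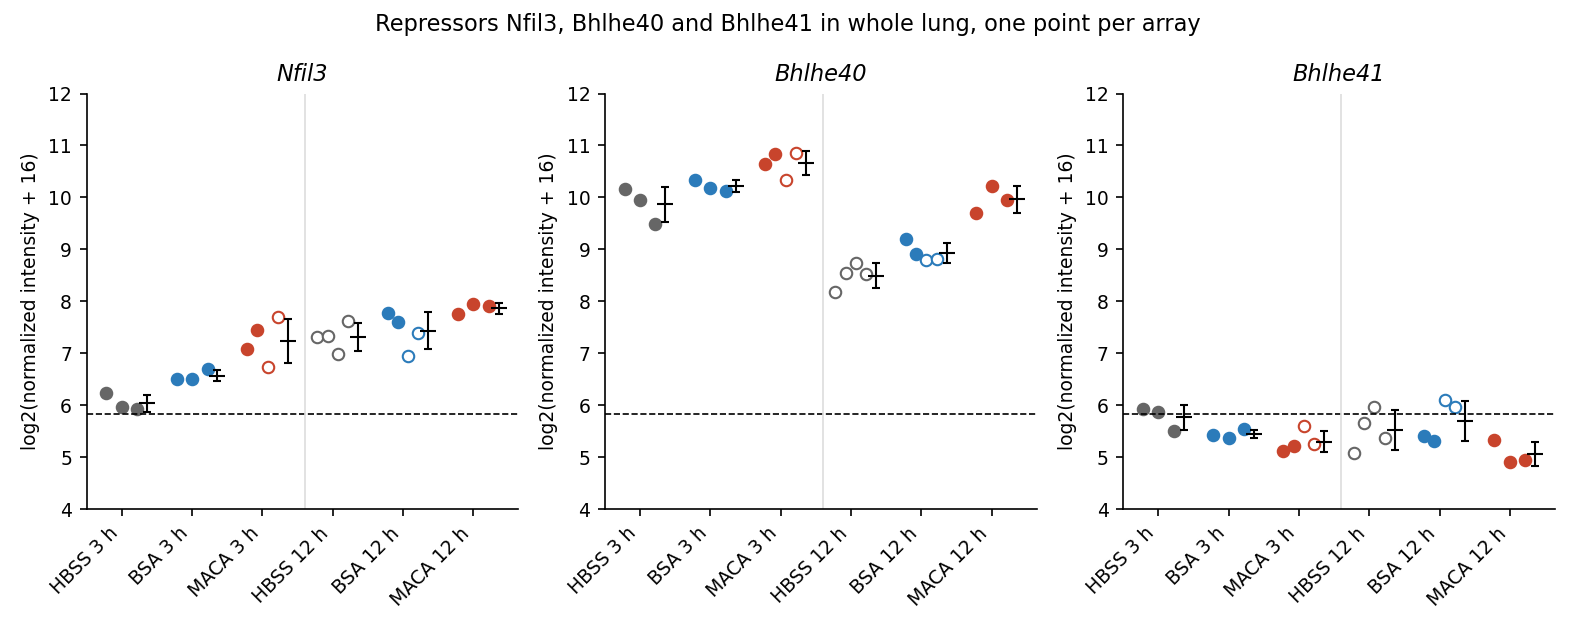
Intensity of the repressors Nfil3, Bhlhe40 and Bhlhe41 on every array, as log2(normalized intensity + 16), by agent and time, with the same symbols, bars and noise line as in the plot of the PAR bZIP genes. Nfil3 is higher at 12 h within each agent and Bhlhe40 lower, and Bhlhe41 lies around or under the noise level.

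The control-ratio set moved with Dbp. Over all arrays Dbp was higher in the high set by a log2 value of 0.86 ± 0.17 (adjusted p = 0.00329), while the other 5 members were not called and 14.8% of all genes were. Bhlhe41 came next (-0.46, adjusted p = 0.0746), on values near noise. The Dbp differences inside these groups, from which its set value comes, were 0.89 at MACA 3 h and 0.84 at BSA 12 h. At MACA 3 h the 2 high and 2 low arrays also did not overlap for Hlf (high minus low 0.60) and Bhlhe41 (-0.26). At BSA 12 h they did not overlap for any member, with differences of -0.93 for Hlf, -0.66 for Bhlhe41, 0.52 for Nfil3, -0.28 for Tef and 0.25 for Bhlhe40. The low arrays there include BSA 12 h replicate 4, which had the highest 3′ to 5′ ratios. For these splits of 2 arrays against 2, the share of all genes without overlap was not counted. The lack of overlap is therefore not read as a result about the members. With the set as a term, the vehicle change of Dbp was -4.35 on the log2 scale (adjusted p = 1.23e-07), Tef was -2.03, Hlf -2.67, Nfil3 1.56 and Bhlhe40 -1.17, all called. Of all genes 9.86% were called in that comparison with the set as a term. Set and time coincide in vehicle lungs, so the set value in this fit came from MACA 3 h and BSA 12 h. For Hlf those groups differed in sign (0.60 and -0.93). The vehicle calls of this fit therefore do not separate time from set. Within the high set alone, the BSA lungs gave log2 folds of -4.70 for Dbp, -1.85 for Tef, -2.59 for Hlf, 1.12 for Nfil3 and -1.16 for Bhlhe40, all called. In MACA lungs within that set Dbp, Tef, Hlf and Nfil3 were called (adjusted p for Nfil3 0.0306) and Bhlhe40 was not (log2 fold -0.78, adjusted p = 0.0544). No such fit was possible for the vehicle lungs, and the share of all genes called within the high set was not counted.

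At 3 h after dosing, MACA lungs had more Nfil3 and Bhlhe40 transcript than vehicle lungs, and the PAR bZIP genes sat lower without passing the threshold. The call was made for 2 of 6 members, both higher, where 8.12% of all genes were called and 4.84% were called higher. The arrays of 4 members did not overlap, against 21% of all genes. Nfil3 was 2.3-fold higher (log2 fold 1.20 ± 0.21, adjusted p = 0.00246). Its lowest MACA array, 89.9, stood above the highest vehicle array, 59.0. Bhlhe40 was 1.74-fold higher (log2 fold 0.80 ± 0.17, adjusted p = 0.00984), with no overlap between 1278 to 1824 in MACA and 705 to 1127 in vehicle lungs. The Bhlhe40 call rested on 1 array: without HBSS 3 h replicate 3, the lowest, the log2 fold was 0.61 and the adjusted p 0.0667. The call of Nfil3 was made in 7 of 7 such fits. In a fit of these 7 arrays alone neither gene was called (adjusted p 0.0524 for Nfil3 and 0.0857 for Bhlhe40). Within the high set the log2 folds were 1.22 for Nfil3 (adjusted p = 0.00238) and 0.87 for Bhlhe40 (0.0466).

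The 3 PAR bZIP genes at 3 h had log2 folds of -0.96 ± 0.34 for Hlf (adjusted p = 0.0907), -0.61 ± 0.29 for Dbp (0.207) and -0.34 ± 0.13 for Tef (0.125). Each had an unadjusted p under 0.05. The MACA and vehicle arrays of Hlf and Tef did not overlap, and those of Dbp did. The Dbp value moved with the control-ratio set, and with the set as a term its log2 fold was -0.18 (adjusted p = 0.631). Hlf was -1.04 (0.0966) and Tef -0.41 (0.0839) in that fit. The Hlf difference was called with a pseudocount of 64 (adjusted p = 0.0473). In the second probe sets the log2 folds were -0.78 for Hlf (adjusted p = 0.132) and -0.37 for Dbp (0.216).

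At 12 h Bhlhe40 was the member that set MACA lungs apart. Of 6 members 2 were called, Bhlhe40 higher and Tef lower, where 20.2% of all genes were called (10.2% higher and 10.1% lower), and 4 members did not overlap, against 32.7% of all genes. Bhlhe40 was 2.76-fold higher (log2 fold 1.46 ± 0.17, adjusted p = 7.25e-05), the 116th highest fold of 12393 genes, and the lowest MACA array, 818, stood far above the highest vehicle array, 413. It was called in 7 of 7 fits that left out 1 array and with the set as a term (log2 fold 1.26, adjusted p = 0.00323). Set and agent coincide in this comparison, so the set value in that fit came from MACA 3 h and BSA 12 h. Without scaling Bhlhe40 was not called (log2 fold 0.80, adjusted p = 0.0661, where the median of all genes was -0.57). Tef was 1.38-fold lower (log2 fold -0.47 ± 0.13, adjusted p = 0.0186), without overlap. That call was lost without MACA 12 h replicate 2 (adjusted p = 0.119), without MACA 12 h replicate 3 or HBSS 12 h replicate 4, and with the set as a term (log2 fold -0.33, adjusted p = 0.229). The other Tef probe sets had log2 folds of -0.17 and -0.05 and were not called.

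Nfil3 at 12 h had a log2 fold of 0.55 ± 0.21 against vehicle (adjusted p = 0.0750), which was -0.08 without scaling between arrays. Its MACA arrays, 199 to 230.1, stood above the vehicle arrays, 110.2 to 182. Dbp and Hlf were under noise in every MACA 12 h array, so that only bounds can be given, at least 1.17-fold lower for Dbp (adjusted p = 0.227) and at least 1.12-fold lower for Hlf (0.472). The median log2 fold of the members against vehicle was -0.40 at 3 h and -0.42 at 12 h (-0.20 with the 2 bounds), beside medians of all genes of -0.02 and -0.00. Bhlhe41, whose differences were not measurable, is a middle value in both fitted medians, as is Hlf at 12 h. No shift of the members as a set is read from them.

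BSA, the other protein given, moved no member past the threshold at either time. At 3 h 0 of 6 members were called against vehicle and 0.178% of all genes, with 1 member at an unadjusted p under 0.05. That member was Nfil3, with a log2 fold of 0.53 ± 0.23 (adjusted p = 0.412), and its BSA arrays (74.6 to 87.8) did not overlap with the vehicle arrays (44.6 to 59.0), as was so for 18% of all genes. At 12 h 0 of 6 were called and 1.35% of all genes. Bhlhe40 had the lowest p, with a log2 fold of 0.43 ± 0.16 (adjusted p = 0.184), which was -0.14 without scaling, where the median of all genes was -0.45. It was the 1 member whose arrays did not overlap, against 8.32% of all genes. The 95% intervals of the BSA to vehicle log2 difference ran from -0.80 to 0.50 for Dbp at 3 h and from -0.62 to 0.51 at 12 h, from -0.49 to 0.10 and from -0.27 to 0.24 for Tef, and from -1.17 to 0.35 and from -0.69 to 0.63 for Hlf.

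Set directly against BSA, the MACA lungs had more Bhlhe40 transcript at 12 h, while a lower Tef value was called in the brightest probe set and hung on single arrays. At 3 h 0 of 6 members were called, against 5.95% of all genes, and 2 had an unadjusted p under 0.05. They were Nfil3 (log2 fold 0.67 ± 0.21, adjusted p = 0.0742, without overlap, as for 17.7% of all genes) and Bhlhe40 (0.45 ± 0.17, adjusted p = 0.144). Within the high set Nfil3 was called (log2 fold 0.69, adjusted p = 0.0481). At 12 h 2 of 6 were called, 1 higher and 1 lower, against 9.65% of all genes (4.07% higher and 5.58% lower). Bhlhe40 was 2.05-fold higher (log2 fold 1.03 ± 0.17, adjusted p = 0.00204), and its MACA arrays (818 to 1174) lay above the BSA arrays (427 to 570.3), a lack of overlap seen in 18.3% of all genes. Tef was 1.36-fold lower (log2 fold -0.45 ± 0.13, adjusted p = 0.0398), with overlap, and that call was made in 2 of 7 fits that left out 1 array, with an adjusted p of 0.203 without MACA 12 h replicate 2. In Tef 1450184_s_at the mean log2 values at 12 h were 6.40 in MACA and 6.43 in BSA lungs. In 1438033_at all arrays of both groups lay under noise. The comparisons with BSA share the MACA arrays with the comparisons against vehicle. With the set as a term Bhlhe40 had a log2 fold of 0.93 (adjusted p = 0.0100) and Tef -0.38 (0.134). The Bhlhe40 call was lost without scaling (log2 fold 0.93, adjusted p = 0.268) and in a fit of these arrays alone (0.0578).

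**Figure D3:**
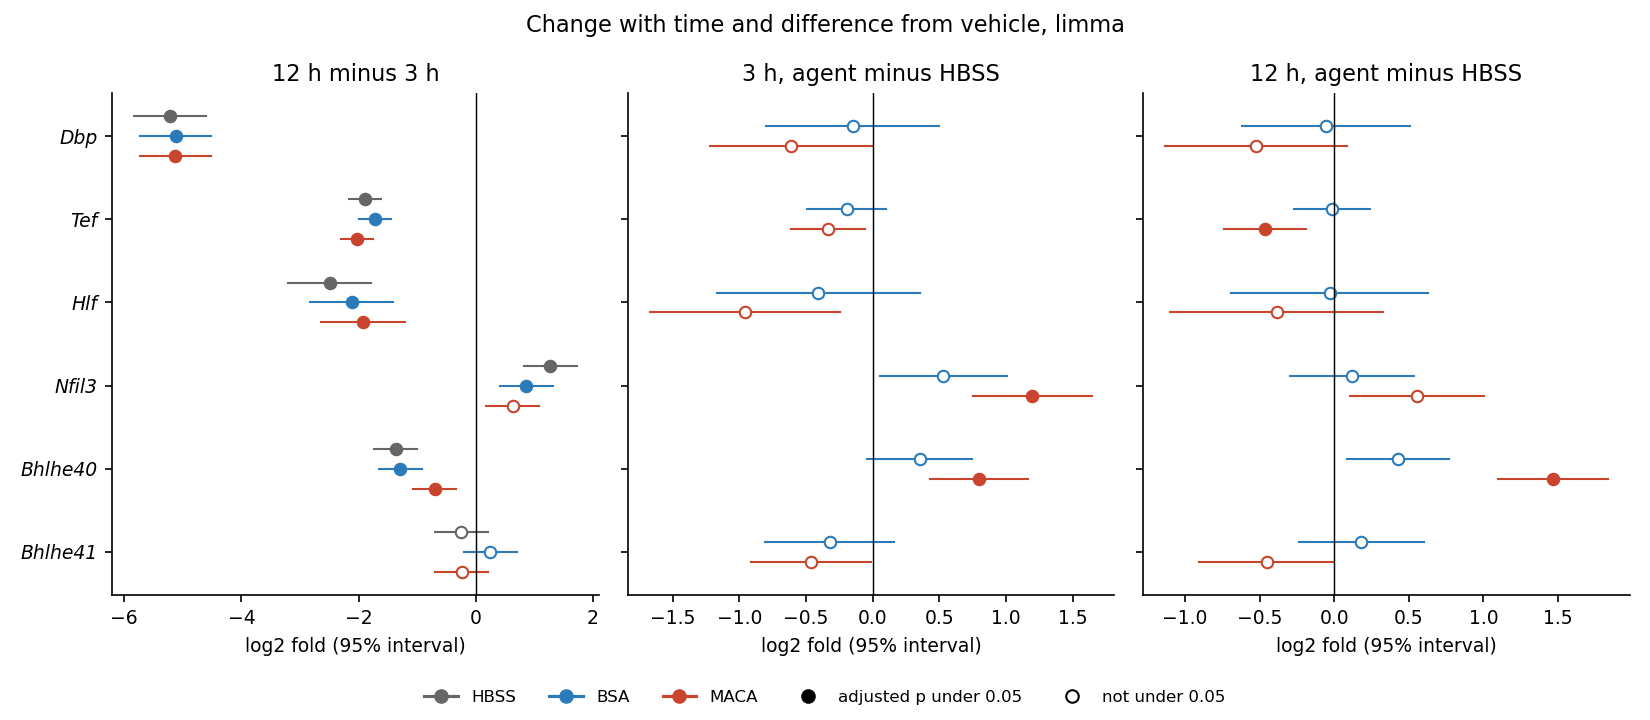
Log2 folds of the 6 genes with 95% intervals from limma for 12 h against 3 h in each agent (left), and for BSA and MACA against HBSS at 3 h (middle) and at 12 h (right). Filled points passed an adjusted p of 0.05, and horizontal scales differ between panels. The time folds of Dbp lie near -5 for every agent, and the folds of Bhlhe40 against vehicle are 0.80 at 3 h and 1.46 at 12 h in MACA lungs. Folds of Bhlhe41, and of Dbp and Hlf in MACA 12 h lungs, rest on values at noise.

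Whether the change with time itself differed between agents was tested as an interaction. Of 6 members 0 were called for MACA against vehicle, where 3.91% of all genes were, and 0 for MACA against BSA, where 0.718% were. At an unadjusted p under 0.05 stood 2 members in the first and 1 in the second. The Bhlhe40 fall with time was smaller in MACA than in vehicle lungs by a log2 value of 0.66 ± 0.25 (adjusted p = 0.139), which was -0.11 without scaling, and smaller than in BSA lungs by 0.59 ± 0.25 (0.230). The Nfil3 interaction against vehicle was -0.64 ± 0.30 (adjusted p = 0.241). For Tef the interval of the difference in log2 change between MACA and vehicle ran from -0.52 to 0.26. No such interval is given for Dbp and Hlf, since all their MACA 12 h arrays lay under noise.

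Ordered by the group means of their brightest probe sets, Dbp, Tef and Hlf ran from vehicle through BSA to MACA at 3 h, and then from vehicle through BSA to MACA at 12 h. The order within a time was not the same in the other probe sets. Dbp 1418174_at was at 5.97 in BSA and 5.62 in vehicle lungs at 12 h, Tef 1450184_s_at at 8.52 in MACA and 8.19 in BSA lungs at 3 h, and Hlf 1434736_at at 8.25 in BSA and 8.20 in vehicle lungs at 3 h. The 12 h means of Dbp and Hlf also rest on values at or near noise. The mean log2 value of Dbp was 11.27 ± 0.23 (SD) in vehicle and 10.66 ± 0.54 in MACA lungs at 3 h, and 6.05 ± 0.33 and 5.53 ± 0.21 at 12 h. In the brightest probe sets neighbouring groups overlapped in all 3 genes except at the step from MACA 3 h to HBSS 12 h. Nfil3 ran from MACA 12 h (7.87 ± 0.11) through BSA 12 h, HBSS 12 h and MACA 3 h (7.24 ± 0.43), each overlapping the next, down to BSA 3 h (6.57 ± 0.11) and HBSS 3 h (6.04 ± 0.16), which overlapped with no neighbour. Bhlhe40 ran from MACA 3 h (10.66 ± 0.24) through BSA 3 h, MACA 12 h and HBSS 3 h (9.87 ± 0.34), each overlapping the next, to BSA 12 h (8.93 ± 0.19) and HBSS 12 h (8.50 ± 0.24), which stood apart from their neighbours.

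The genes nearest to each member were sought by the root mean square difference of the 6 group means, each gene centred on its own mean, among 8911 genes above noise. Dbp stood closest to Nr1d1, the REV-ERB alpha repressor, at a log2 difference of 0.599, where the spread of Dbp itself over the groups was 2.59. Nr1d2 (1.23) and Zbtb16 (1.27), a zinc finger factor, followed. Tef lay next to Map3k6 (0.224), a stress kinase, Per3 (0.229), a clock repressor, and Hlf (0.239). Hlf in turn lay next to Per3 (0.166), Tef and Map3k6 (0.312). Bhlhe40 was nearest to Maff (0.189), a small Maf factor, Tnfrsf12a (0.225), the TWEAK receptor, and Mt1 (0.251), a metallothionein. For Nfil3 they were Ikzf4 (0.147), an Ikaros family factor, Plac8 (0.208) and Ppa1 (0.220), a pyrophosphatase. Bhlhe41 is left out here since its own means are mostly noise. These are likenesses over 6 means only.

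The core clock moved beside the outputs. Of 17 core clock genes, 13 were measured. In vehicle lungs 3 were higher at 12 h and 7 lower, 10 of 13 called, with a median log2 fold of -0.42. Nr1d1 fell by 4.02 on the log2 scale, to a 12 h mean of 5.19 that is under noise, and Per2, a repressor, fell by 2.77. The activator genes Arntl (at least 7.39-fold) and Npas2 (at least 4.95-fold), a partner of BMAL1 like CLOCK, were higher. In BSA lungs 2 core clock genes were higher and 6 lower, and in MACA lungs 3 higher and 8 lower. The shares of all genes called in these main fits were 7.88% in vehicle, 5.3% in BSA and 10.7% in MACA lungs. Without scaling 9 core clock genes were called in vehicle, 6 in BSA and 6 in MACA lungs.

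Other genes known to be driven by the clock or its outputs were measured for 11 of 14 on the list. In vehicle lungs 6 were lower at 12 h and 0 higher, with a median log2 fold of -1.06. The strongest were Tspan4 (log2 fold -1.76), Klf15 (-1.49), a glucocorticoid-induced factor, Wee1 (-1.48), a cell cycle kinase under an E-box, and Usp2 (-1.27), a deubiquitinase. In BSA lungs 5 were lower (3 without BSA 3 h replicate 2) and in MACA lungs 4 (2 without MACA 12 h replicate 2). Without scaling the count was 1 in vehicle, 0 in BSA and 0 in MACA lungs. Of all genes 7.88%, 5.3% and 10.7% were called in the main fits of vehicle, BSA and MACA lungs.

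**Figure D4:**
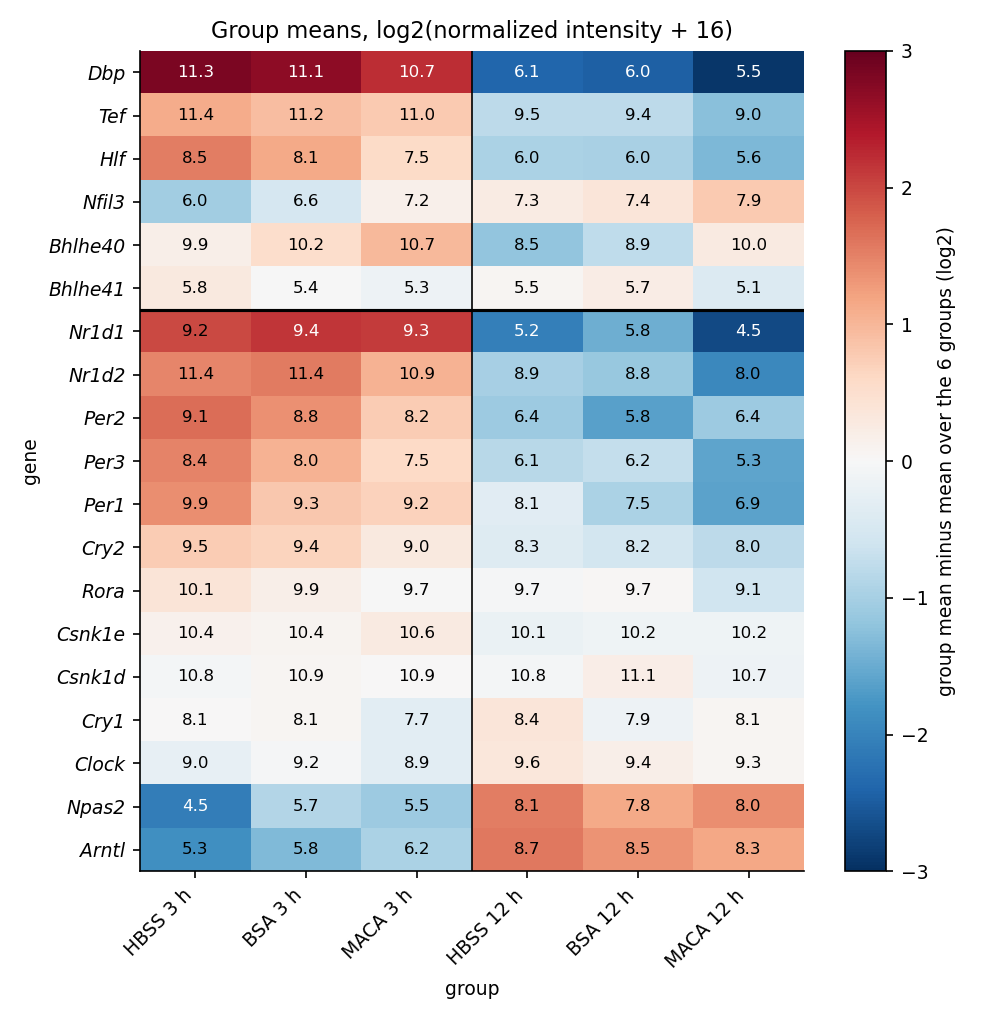
Group means of the 6 output factors (top) and of the 13 measured core clock genes (bottom, ordered by their change with time). Numbers are mean log2(normalized intensity + 16), and colour is the group mean minus the gene's mean over the 6 groups. Dbp, Tef, Hlf, Nr1d1, Nr1d2 and the Per genes are high at 3 h and low at 12 h, and Arntl and Npas2 the reverse.

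Against vehicle at 3 h, where 8.12% of all genes were called, 4 of the 11 clock-driven genes were lower in MACA lungs and 0 higher (2 without HBSS 3 h replicate 2). They were Klf15 (log2 fold -1.77), Usp2 (-1.19), Wee1 (-1.03) and Alas1 (-0.86), the first enzyme of heme synthesis. Their median was -0.52, beside -0.02 over all genes. At 12 h, where 20.2% of all genes were called, 3 of the 11 clock-driven genes were. Klf15 (-1.56) and Klf9 (-0.82) were lower and Tspan4 (0.81) higher, a count not far from that share. Of the 13 core clock genes 2 were called at 3 h, Per3 lower (-0.89) and Npas2 higher with both groups under noise. Without MACA 3 h replicate 1 there were 4, and without MACA 3 h replicate 3 or 4, or HBSS 3 h replicate 1 or 2, there was 1. At 12 h 4 were lower and 0 higher: Per1 (-1.26), Per3 (at least 1.20-fold), Rora (-0.56) and Clock (-0.27). Without MACA 12 h replicate 1 that count was 1, without MACA 12 h replicate 2 or HBSS 12 h replicate 2 it was 2, with the set as a term 2, and without scaling 10.

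Relatives of the members by structure were listed too. Of 5 measured C/EBP genes, bZIP factors that bind sites similar to the D-box, 0 were called between 12 h and 3 h in vehicle lungs (median log2 fold -0.13, and 3 called without scaling). In BSA lungs 2 were lower at 12 h (median -0.42) and in MACA lungs 3 (median -0.59), where 5.3% and 10.7% of all genes were called. The BSA count was 0 without BSA 3 h replicate 2 and 1 without BSA 3 h replicate 1 or BSA 12 h replicate 3 or 4. The MACA count was 1 without MACA 3 h replicate 3 or 4 or any of the MACA 12 h arrays. Without scaling the BSA and MACA counts were both 0. Against vehicle, Ddit3 was higher (log2 fold 1.04) and Cebpa lower (-0.51) in MACA lungs at 3 h, where 8.12% of all genes were called. At 12 h, where 20.2% were, Cebpb was higher (0.46) and Cebpg lower (-0.37). Leaving out 1 array made the 3 h count 1 in 6 of 7 fits, all but that without MACA 3 h replicate 1. The 12 h count was 0 without MACA 12 h replicate 1 or 2 or HBSS 12 h replicate 2, and 1 without HBSS 12 h replicate 1, 3 or 4. Of 9 measured Hes and Hey genes, bHLH repressors with the same Orange domain as the BHLHE40 protein, 0 were called with time in vehicle lungs (median 0.17, 5 without scaling). Against vehicle at 12 h, where 20.2% of all genes were called, 1 of the 9 was, Hey2, lower in MACA lungs (-0.55). That count was 0 without MACA 12 h replicate 2 and 2 without MACA 12 h replicate 1 or HBSS 12 h replicate 3.

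In MACA against vehicle lungs, the share of neutrophil markers called was well above that of all genes at both times. For macrophage and monocyte markers this held at 12 h only, and for T and NK cell markers at neither time. Of 11 measured neutrophil markers 6 were higher in MACA than in vehicle lungs at 3 h and 5 at 12 h. Against BSA 6 were higher at 3 h and 2 at 12 h. Of all genes 8.12% and 20.2% were called in MACA against vehicle at 3 h and 12 h, and 5.95% and 9.65% against BSA. The summed intensity of the 11 ran from 1151 to 3595 at HBSS 3 h, 1573 to 4320.4 at BSA 3 h and 7789 to 11946 at MACA 3 h, and from 1871 to 3161 at HBSS 12 h, 3089.8 to 7119 at BSA 12 h and 4524 to 8119.5 at MACA 12 h. Of 11 macrophage and monocyte markers 1 was higher at 3 h and 5 at 12 h, with sums of 14775 to 17958 at HBSS 3 h and 19615 to 22054 at MACA 3 h, and of 16073 to 17274 at HBSS 12 h and 18372 to 19779 at MACA 12 h. Of 10 T and NK cell markers 0 were higher at 3 h and 1 at 12 h. Their sums ran from 913 to 1549 at HBSS 3 h and 1465 to 2141 at MACA 3 h, and from 902 to 1932 at HBSS 12 h and 1731 to 2843 at MACA 12 h, and Cd4 was at 0 on all arrays of HBSS 3 h, BSA 3 h and HBSS 12 h. Of 10 muscle and fat markers 3 were lower at 12 h, with sums of 8504 to 14035 at HBSS 12 h and 4976 to 6623 at MACA 12 h. No neutrophil, macrophage, muscle or fat marker was at 0 on all arrays of a group. Of the 10 lung epithelial and endothelial markers, Sftpc and Sftpd were higher in MACA than in vehicle lungs at 12 h. Between 12 h and 3 h in vehicle lungs 0 markers of the first 4 lists were called by limma, while Sftpc (log2 fold -0.19) and Ager (-0.32), markers of alveolar cells, were lower. Of all genes 7.88% were called in that comparison, 3.82% lower. Sftpc lay at the top of the normalized scale, with a mean log2 value of 13.76 and an SD of 0 at BSA 12 h. Scgb1a1 had the same mean and SD at HBSS 12 h. The folds of Sftpc therefore rest on shifts among the brightest probe sets. The part of the listed markers in the differences of the members was not tested.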

How the data were processed

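Total RNA of the whole left lung was labelled with biotin and hybridised to 1 array per mouse lung sample, per the labels' protocols. The authors deposited 1 intensity per probe set and array on a linear scale, for 22690 probe sets. For scanner software, probe summary and scaling the sources used here give nothing. Of each array's values 9.37% to 11.1% were below 0, and array medians ran from 93.5 to 288 (3.08 times). The number of arrays limits the precision, and p-values measure the spread between arrays labelled biological replicates. No pair of arrays was identical (0 pairs).

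After 64 control probe sets were left out, intensities were quantile normalized, values below 0 set to 0, and log2(value + 16) taken, which understates changes of dim genes. Of 22626 probe sets, 20380 had 1 symbol in the platform annotation, which can be old, 691 several and 1555 none. Old symbols were replaced through gene numbers in RefSeq's GRCm38.p6 table (20351 matched). R 4.3.3 and limma 3.58.1 fitted 6 group means (15 residual degrees of freedom) and 11 comparisons, 9 pairwise and 2 interactions. Plots were drawn in python 3.11.15 with matplotlib 3.10.9, and the fit was tested on simulated data. Named genes are all member probe sets, up to 4 genes with the largest called change of each pathway list in MACA against HBSS and in 12 h against 3 h in HBSS, and the 3 nearest genes of each member. The members and lists were chosen with earlier results of these data known. Alternatives were no or median scaling, pseudocounts of 4 and 64, a filter on low genes (9305 kept), only the groups compared, replicate number as a block, the array set, and leaving out each array.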

Additional observations from a re-analysis of the deposited data

How the results depend on the processing

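Without scaling between arrays, 0 members were called in MACA against HBSS at 3 h and 0 in MACA against BSA at 12 h, 3 in BSA lungs over time (Dbp, Tef and Hlf, 0 higher and 3 lower) and 1 in the change with time of MACA minus HBSS (Nfil3, adjusted p = 0.0411). In MACA against HBSS at 12 h the unscaled calls were Tef and, on MACA arrays under noise, Bhlhe41, 0 higher and 2 lower. The log2 values that turned sign without scaling were Nfil3 in MACA against HBSS at 12 h (-0.076), Bhlhe40 in BSA against HBSS at 12 h (-0.14) and Bhlhe40 in the change of MACA minus HBSS (-0.11). The unscaled median of all genes was 0.72 for 12 h against 3 h in HBSS, -0.57 and -0.45 for MACA and BSA against HBSS at 12 h, and -0.66 for that change. With the array set as a term Bhlhe41 in MACA against HBSS at 12 h turned to 0.0090. With low genes left out, and within the high set, MACA against BSA at 3 h gave 1 call, Nfil3. With only the groups compared, where fewer arrays enter, there were 0 calls in MACA against HBSS at 3 h, 0 in MACA against BSA at 12 h and 3 in BSA lungs over time. Leaving out 1 array gave 1 to 2 calls in MACA against HBSS at 3 h and 1 to 2 at 12 h, 0 to 1 in MACA against BSA at 3 h and 1 to 3 at 12 h, 5 in HBSS, 4 to 5 in BSA and 3 to 5 in MACA lungs over time, and 0 elsewhere. The cause of these changes was not tested beyond the fewer arrays named.

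Replicate numbers were not taken to pair the arrays, since not every same-number pair correlated above 0.1. That rule does not decide whether arrays of 1 number share some structure. In MACA 3 h and BSA 12 h, numbers 3 and 4 were also the low set, so number and set are entangled there. Deviations from the group means had a median r of 0.0596 over 48 same-number pairs, of which 17 were above 0.1, against a median of -0.0276 over 135 different-number pairs, of which 23 were above 0.1, and 9 of 21 arrays were closest to their own number. With replicate number as a block, 4 members were called in MACA against HBSS at 12 h (Dbp, Tef, Nfil3 and Bhlhe40), where 2 were without it. The Dbp call rests on MACA arrays that all lay under noise. Without the block 20.2% of all genes were called in that comparison, and the share with it was not counted. The block also took the call of Tef in MACA against BSA at 12 h (adjusted p = 0.0791) and gave one to Nfil3 over time in MACA lungs (0.0272).

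Over the alternatives, called members of the gene lists ranged as follows in MACA against HBSS at 3 h and 12 h and over time in HBSS: 0 to 3, 2 to 10 and 8 to 10 core clock genes, 0 to 5, 3 to 5 and 1 to 6 clock-driven genes, 0 to 2, 0 to 2 and 0 to 3 C/EBP genes, and 0 to 1, 1 to 5 and 0 to 5 Hes and Hey genes. Signal over background limits Bhlhe41 at both times and Dbp and Hlf at 12 h.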
